A study of Mus musculus with 8 samples.

Results

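The late step of fat cell differentiation, from day +2 to day +4 after hormonal induction, was examined in mouse 3T3-L1 cells. It is covered by 4 of the 8 arrays of the series: WT at day +2, WT at day +4, sh8 at day +2 and sh8 at day +4. The arrays were chosen by their labelled day alone, whatever the line. 3T3-L1 is an established preadipocyte line that stops dividing at confluence and turns into fat cells when given a hormone mix. WT cells were unmodified, and sh8 cells stably carried shRNA-8, a short hairpin RNA directed at the long noncoding RNA slincRAD. All 4 arrays came from cells kept in 10% newborn calf serum and then induced with 0.5 mM IBMX, which raises cyclic AMP, 1 µM dexamethasone, a glucocorticoid, and 167 nM insulin, with fresh medium every 2 days. Each array held 1 µg of RNA labelled with Cy3. No line with a control hairpin was among the samples, so hairpin target and line cannot be told apart. The labels do not say whether sh8 was 1 clone, slincRAD itself was not analysed here, and nothing says that the arrays came from separate cultures. The question was what the cells gained and lost between these days, and in which line.

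After induction, 3T3-L1 cells first divide again for a short period (mitotic clonal expansion), leave the cell cycle and then build the fat cell programme. C/EBPβ and C/EBPδ act early and are followed by PPARγ and C/EBPα, which switch on carriers of fatty acids, lipid droplet coats and secreted proteins such as adiponectin. The step studied here follows the start of that division and precedes the lipid-filled fat cell.

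Each level is the log2 processed intensity relative to the 75th percentile of its array. A level of 0 is thus that percentile, and a difference of 1 is 2-fold. The 75th percentile was at an intensity of 885 in WT at day +2, 847 in WT at day +4, 867 in sh8 at day +2 and 760 in sh8 at day +4. The share of probes well above background, by the scanner's own flag, was 72.4% in WT at day +2 and 79.7% at day +4, and 81.7% and 78.3% in sh8. All 4 arrays lay on 1 slide. Of 10 fat cell markers 10 were well above background on every array, as were 8 of 8 preadipocyte and fibroblast markers, whose median level was between 5.66 and 6.43. The summed signal of the fibroblast markers was no lower at day +4, at 504 against 479 times the 75th percentile in WT and 589 against 544 in sh8. The number of arrays limits the precision. As each line has a single array a day, a gene's own spread is only how differently the lines moved, and it may be technical. The limma p-values and SEs use this spread moderated toward that of all features. The prior carried 2.34 degrees of freedom, against 1 residual.

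No feature passed the test of the shared change over both lines. Of 26020 features, 17298 of them named genes, 0 (0%) had an adjusted p under 0.05 by limma, with line as a covariate. The lowest adjusted p by limma was 0.496, and 2554 features had an unadjusted p under 0.05, of which 1528 were higher and 1026 lower at day +4. With a variance trend and robust estimation, an alternative setting of the same limma fit, 92 features (0.354%) passed as higher and 69 (0.265%) as lower, and the values below name members that passed there. Without any size requirement, 10857 features (41.7%) were higher at day +4 in both lines and 5878 (22.6%) lower in both. The median shared change over all features was 0.08. The changes of the lines had a Pearson r of 0.24 across features, which share arrays and are not independent replicates. In each line alone 1 array stood against 1, with no replicate check. Counting features that exceeded background clearly (the scanner's flag) on either array, WT had 728 (2.86%) at least 2-fold higher and 179 (0.702%) at least 2-fold lower at day +4, and sh8 had 640 (2.47%) and 505 (1.95%). Higher features made up 80.3% of these in WT and 55.9% in sh8, but 61.4% and 48.8% with quantile normalization, 55.7% and 43.5% after normexp, and 57.5% and 52.2% in the authors' value table. Of the WT features, 171 were higher and 103 lower when only those well above background on all 4 arrays were counted. In both lines 77 features were at least 2-fold higher, 31 at least 2-fold lower, and 48 moved at least 2-fold in opposite directions.

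**Figure D1:**
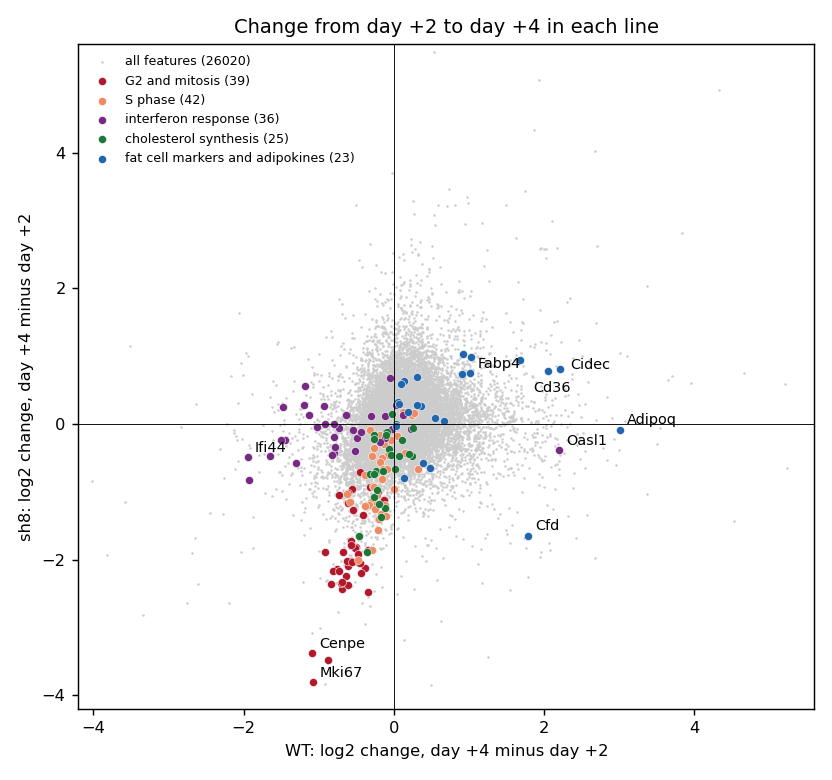
Each point is 1 of 26020 features, placed by its log2 change from day +2 to day +4 in WT (horizontal axis) and in sh8 (vertical axis), with the members of 5 gene lists in colour. The 39 genes of G2 and mitosis lie below 0 in both lines and farther down in sh8, the interferon genes reach to the left, and fat cell genes such as Adipoq, Cidec and Cd36 reach to the right.

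Genes of G2 and mitosis had the lowest median shared change of the 39 lists, at -1.28. All 39 measured members of a list of 40 were lower at day +4 in WT and in sh8, against 22.6% of all features. Their median change was -0.57 in WT, with a range from -1.09 to -0.13, and -2.02 in sh8, with a range from -3.80 to -0.71. The median level went from 0.66 to 0.03 in WT and from -0.22 to -2.11 in sh8. In sh8 35 of the 39 were at least 2-fold lower and in WT 2 were, against 1.95% and 0.702% of all features. The drop was larger in sh8 for all 39. Among all 26020 features the sh8 change was below the WT change for 13566, whether they rose or fell. By limma without the trend 0 of the 39 passed, and Racgap1 and Foxm1 passed with the variance trend. In RNA from whole cultures, fewer cells of a type and less RNA per cell cannot be told apart.

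The proliferation marker Mki67 had a level of -1.15 in WT at day +2 and -2.23 at day +4, and of 1.14 in sh8 at day +2 and -2.66 at day +4. Mki67 was thus highest in sh8 at day +2 and lowest in sh8 at day +4, and the 4 levels did not overlap between the days. It was 2.12-fold lower at day +4 in WT and 14.0-fold lower in sh8. The shared change was -2.44 ± 0.75 (moderated SE, 2 lines), with an adjusted p of 0.496 by limma. Its second probe gave -1.16 and -3.78. Cenpe, the kinesin that attaches chromosomes to the spindle, went from -0.05 to -1.14 in WT and from 1.28 to -2.10 in sh8, the same order as Mki67. By contrast, 34 of the 39 members were higher in WT than in sh8 on both days. Cdc20, the activator of the anaphase-promoting complex, went from 3.22 to 2.67 in WT and from 2.24 to 0.20 in sh8. Cyclin B1, Ccnb1, which starts mitosis with Cdk1, went from 2.89 to 2.43 in WT and from 1.66 to -0.40 in sh8. Top2a, the topoisomerase that untangles chromosomes, went from -0.21 to -1.05 and from -0.91 to -3.27.

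In this fit a gene's own spread is the difference between the lines' changes, so genes that moved alike pass more easily. Racgap1, needed for the cleavage furrow, went from 1.81 to 1.19 in WT and from 0.80 to -0.21 in sh8. Its shared change was -0.82 ± 0.16 (SE), 1.76-fold lower, with an adjusted p of 0.496 by limma and of 0.0376 with the variance trend. Foxm1, the transcription factor of the mitotic programme, went from -0.62 to -1.35 in WT and from -2.19 to -3.24 in sh8, a shared change of -0.89 ± 0.15 (SE), with an adjusted p of 0.496 by limma and of 0.041 with the trend. A dimmer probe of Foxm1 gave only -0.03 and -0.22. Cdk1 itself had the smallest drop in WT, from 3.59 to 3.46, against 2.43 to 1.31 in sh8, and a dimmer probe of it gave 0.38 and -0.51.

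**Figure D2:**
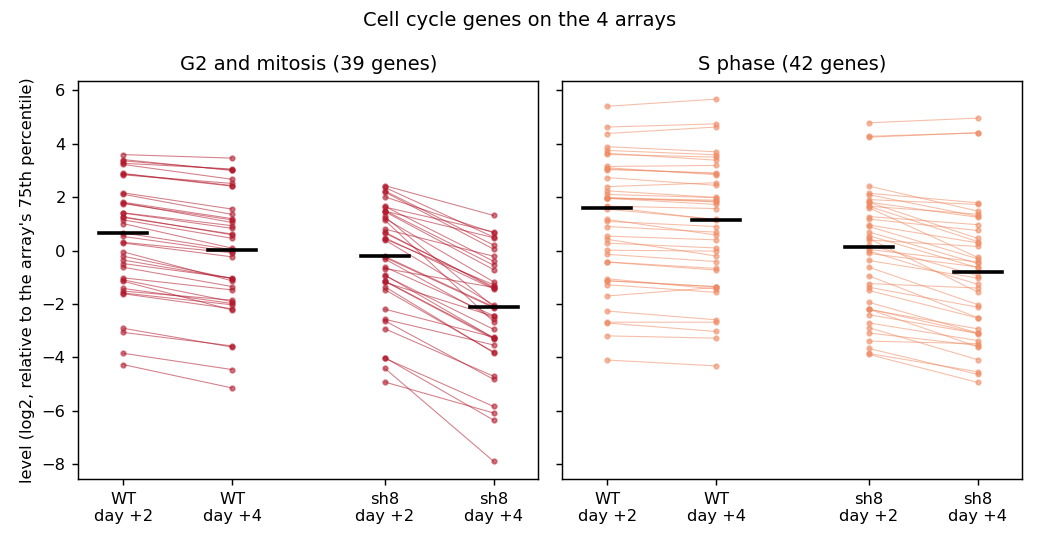
Each line joins 1 gene's level at day +2 and day +4 within a cell line (log2, relative to the array's 75th percentile), for 39 genes of G2 and mitosis and 42 of S phase, and black bars are medians. The mitosis median goes from 0.66 to 0.03 in WT and from -0.22 to -2.11 in sh8, and the S phase median from 1.59 to 1.16 and from 0.13 to -0.79.

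Because these members were lower together, the promoters of 3 of them are shown. The sequences are the 200 bases before the start site from RefSeq (GRCm38.p6), 5′ to 3′ on the gene's strand: Mki67 at chr7:135716380-135716579 (minus), Cdc20 at chr4:118437344-118437543 (minus) and Top2a at chr11:99024190-99024389 (minus). Capitals mark CCAAT, the box bound by NF-Y, and TTTGAA, the core of the cell cycle homology region, on either strand.
Mki67: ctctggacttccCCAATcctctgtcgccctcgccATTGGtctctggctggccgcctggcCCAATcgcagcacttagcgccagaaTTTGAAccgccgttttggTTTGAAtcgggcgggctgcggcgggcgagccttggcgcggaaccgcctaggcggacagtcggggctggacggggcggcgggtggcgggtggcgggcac
Cdc20: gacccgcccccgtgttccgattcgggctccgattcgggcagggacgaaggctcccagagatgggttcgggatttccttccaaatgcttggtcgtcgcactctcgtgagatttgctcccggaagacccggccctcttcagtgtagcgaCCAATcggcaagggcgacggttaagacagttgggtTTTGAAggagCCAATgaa
Top2a: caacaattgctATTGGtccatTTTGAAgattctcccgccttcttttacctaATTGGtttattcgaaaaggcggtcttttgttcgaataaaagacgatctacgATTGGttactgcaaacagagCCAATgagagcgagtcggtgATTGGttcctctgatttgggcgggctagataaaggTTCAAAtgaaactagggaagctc
In windows from 250 bases before to 50 after the start site, 33 of the 39 genes had 35 windows. CCAAT was in 71.4% of these against 37.4% of all 32851 windows, TTTGAA in 68.6% against 17.9%, and both in 60.0% against 6.95%. The motifs are matches of letters, not measured sites.

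Genes of S phase went the same way with smaller drops. Of 42 measured members of 42, 36 were lower at day +4 in both lines and 3 higher, against 22.6% and 41.7% of all features. The median change was -0.19 in WT and -0.74 in sh8. In sh8 16 were at least 2-fold lower, and in WT 0 were, against 1.95% and 0.702% of all features. The list's level was already lower in sh8 at day +2, at a median of 0.13 against 1.59 in WT, and was -0.79 against 1.16 at day +4. Hells, a chromatin remodeller of replicating cells, went from 0.42 to -0.20 in WT and from -1.49 to -2.52 in sh8, a shared change of -0.83 ± 0.16 (SE), with an adjusted p of 0.496 by limma and of 0.0451 with the trend. Pola1, the catalytic subunit of the primase-polymerase, went from 1.17 to 0.58 and from 0.22 to -0.94, a shared change of -0.87 ± 0.20 (SE), with an adjusted p of 0.496 by limma and of 0.0603 with the trend. The maintenance DNA methyltransferase Dnmt1 went from -1.05 to -1.44 and from -1.37 to -2.12, a shared change of -0.57 ± 0.16 (SE). Tk1, thymidine kinase, was 1.22-fold lower in WT, from 2.73 to 2.44, and 3.64-fold lower in sh8, from 1.61 to -0.26. The 3 members that were higher in both lines were the replication clamp Pcna, the GINS subunit Gins3 and the uracil glycosylase Ung. Pcna went from 5.40 to 5.67 in WT and from 4.25 to 4.41 in sh8.

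CCAAT was also in 60.5% of the promoter windows of S phase genes, against 37.4% of all windows. A further motif was found there. TTTCCCGC or TTTGGCGC, sites of the E2F type, were in 34.2% of 38 windows of 34 S phase genes, in 1.56% of all windows and in 0.0% of the mitosis windows. These 2 promoters are shown as examples (same source, 200 bases, E2F-type sites and CCAAT in capitals): Mcm6 at chr1:128359706-128359905 (minus) and Pola1 at chrX:93632156-93632355 (minus).
Mcm6: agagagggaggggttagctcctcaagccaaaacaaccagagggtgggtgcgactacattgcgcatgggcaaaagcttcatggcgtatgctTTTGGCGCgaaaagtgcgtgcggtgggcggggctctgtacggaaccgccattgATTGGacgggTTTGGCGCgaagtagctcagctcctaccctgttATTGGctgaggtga
Pola1: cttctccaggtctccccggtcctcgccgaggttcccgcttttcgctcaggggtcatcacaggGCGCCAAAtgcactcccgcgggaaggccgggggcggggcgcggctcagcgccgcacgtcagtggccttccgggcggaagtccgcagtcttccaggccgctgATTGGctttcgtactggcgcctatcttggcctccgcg
Mcm6, a subunit of the replicative helicase, went from 3.89 to 3.70 in WT and from 1.81 to 1.25 in sh8.

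Inhibitors of the cycle had no common direction. Of 27 CDK inhibitors and p53 targets, 11 were higher and 8 lower in both lines, against 41.7% and 22.6% of all features. The median was 0.06 in WT and 0.00 in sh8, and 0 passed by limma with or without the trend. Cdkn1a, which encodes p21, was at 0.73 and 0.77 in WT and at 1.18 and 1.16 in sh8, a shared change of 0.01 ± 0.12 (SE). The pocket protein gene Rbl1, which is itself induced in cycling cells, had the lowest p of this list. It went from -1.51 to -2.22 and from -0.72 to -1.39, but a dimmer probe gave only -0.15 and -0.21. Cdkn1c, a glucocorticoid-responsive inhibitor, went from -5.32 to -4.21 in WT and from -4.44 to -4.16 in sh8.

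The transcription factors of fat cell formation moved little in this step. Of 23 measured, 9 were higher and 3 lower in both lines, against 41.7% and 22.6% of all features. The median was 0.01 in WT and 0.09 in sh8 (-0.06 in WT with quantile normalization), and 0 were at least 2-fold different in either line. Pparg, the nuclear receptor at the centre of the programme, was at 1.63 and 1.64 in WT and at -0.32 and -0.20 in sh8, so WT stayed above sh8 on both days. Its shared change was 0.06 ± 0.12 (SE), with an adjusted p of 0.839 by limma. Cebpb was at 6.81 and 6.63 in WT and at 6.43 and 6.81 in sh8, and Cebpd at 6.11 on both days in WT and at 6.17 and 6.42 in sh8. Their shared changes were 0.10 ± 0.20 and 0.13 ± 0.14 (SE), and both turned below 0 with quantile normalization. Cebpa, the partner of PPARγ, went from -4.12 to -3.50 in WT and from -3.46 to -3.11 in sh8, a shared change of 0.48 ± 0.14 (SE), with an adjusted p of 0.496 by limma. Klf15, a glucocorticoid-induced factor that acts upstream of Pparg, went from -3.33 to -2.84 and from -1.69 to -0.99.

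Genes that fat cells use were higher at day +4. Of 23 measured fat cell markers and adipokines out of 26, 17 were higher in both lines and 0 lower in both, against 41.7% and 22.6% of all features. The median change was 0.48 in WT and 0.29 in sh8. In WT 7 were at least 2-fold higher, against 2.86% of all features. In sh8 1 was, with 1 at least 2-fold lower, against 2.47% and 1.95%. The list's median level went from -2.18 to -0.89 in WT and from -2.78 to -2.21 in sh8. The 10 fat cell markers used to check the cells had a summed signal of 48.2 times the 75th percentile in WT at day +2 and 71.1 at day +4, and of 17.0 and 26.8 in sh8. Their median level went from -3.61 to -1.20 in WT and was -3.62 and -3.73 in sh8. By limma 0 passed, and 4 passed with the trend: Fabp4, Fabp5, Agt and Rarres2. Endothelial markers, whose cells also express Fabp4 and Cd36, had a median of 0.54 in WT and 0.09 in sh8, and their part in these values was not tested.

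Fabp4, a carrier of fatty acids inside fat cells, was at 4.16 in WT at day +2 and 5.18 at day +4, and at 2.95 in sh8 at day +2 and 3.70 at day +4. The order of its levels followed the day within each line, but the day +4 level of sh8 was below the day +2 level of WT. The shared change was 0.88 ± 0.14 (SE), 1.84-fold, with an adjusted p of 0.496 by limma and of 0.00822 with the trend. Fabp5, a related carrier, went from 4.31 to 5.24 in WT and from 2.05 to 3.07 in sh8, a shared change of 0.98 ± 0.12 (SE), 1.97-fold, with an adjusted p of 0.496 by limma and of 0.00627 with the trend. Agt, which encodes the secreted angiotensinogen, went from -1.35 to -0.32 in WT and from -3.19 to -2.21 in sh8, a shared change of 1.01 ± 0.12 (SE), with an adjusted p of 0.496 by limma and of 0.0232 with the trend. Rarres2, the adipokine chemerin, went from 0.69 to 1.61 and from -0.41 to 0.32.

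The fat cell genes with the largest differences in WT did not move alike in sh8. Adipoq, the adipokine adiponectin, went from -4.51 to -1.50 in WT, 8.05-fold higher, and was at -4.92 and -5.00 in sh8. After normexp the WT difference was 3.59-fold. Only WT at day +4 stood apart for this gene, and the shared change of 1.46 ± 0.85 (SE) had an adjusted p of 0.536 by limma. Cd36, which takes fatty acids into the cell, went from -1.90 to 0.15 in WT (4.15-fold) and from -2.56 to -1.78 in sh8 (1.72-fold), a shared change of 1.42 ± 0.37 (SE). Cidec, which fuses lipid droplets, went from -3.10 to -0.89 in WT (4.62-fold) and from -5.23 to -4.41 in sh8 (1.76-fold), and its second probe gave 1.41 and 0.45. Cfd, the secreted protease adipsin, went from -4.42 to -2.64 in WT and from -3.79 to -5.44 in sh8, which after normexp were 1.93-fold higher and 1.41-fold lower. The insulin-responsive transporter Slc2a4 was dim, at -5.53 and -5.05 in WT and at -4.95 and -5.60 in sh8. The adipokine Retn, resistin, was also split, at -2.54 and -2.15 in WT and at -2.78 and -3.36 in sh8. Lpl, the secreted lipase that hydrolyses lipoprotein triglyceride, differed less between the days. It went from 4.73 to 4.87 in WT and from 3.00 to 3.63 in sh8, a shared change of 0.38 ± 0.18 (SE).

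**Figure D3:**
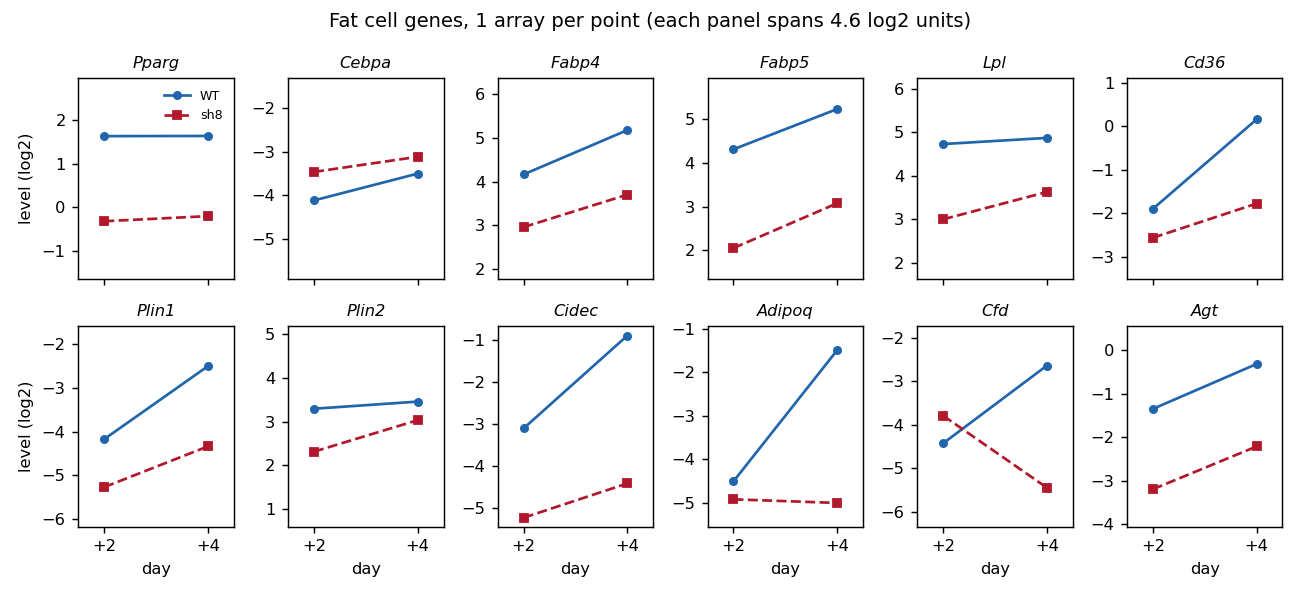
Levels of 12 fat cell genes on each array (log2, relative to the array's 75th percentile) at day +2 and day +4, with WT in blue and sh8 in red, 1 array per point and panels of equal span. Pparg is level in both lines, Fabp4, Fabp5 and Agt are higher at day +4 in both lines, and Adipoq goes from -4.51 to -1.50 in WT while sh8 stays at -4.92 and -5.00.

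Among lipid droplet coats and lipases, 10 of 19 measured genes were higher in both lines and 2 lower, against 41.7% and 22.6% of all features. With quantile normalization 9 were higher in both, against 32.5% of all features. Plin1, the droplet coat of mature fat cells, went from -4.17 to -2.50 in WT and from -5.28 to -4.34 in sh8, a shared change of 1.31 ± 0.24 (SE; 0.73 after normexp), with an adjusted p of 0.496 by limma and of 0.0543 with the trend. Plin2, the coat found on droplets of most cells, was at 3.30 and 3.46 in WT and at 2.31 and 3.03 in sh8. Hilpda, an inhibitor of the lipase ATGL, went from 1.08 to 1.63 and from 1.54 to 1.99. Of triglyceride synthesis genes 12 of 20 were higher in both lines, and 9 with quantile normalization, against 41.7% and 32.5% of all features. Gpat3, which starts glycerolipid synthesis, went from 1.47 to 1.85 and from 0.88 to 1.71. Mogat1, a monoacylglycerol acyltransferase, went from -6.08 to -5.43 and from -4.19 to -3.21.

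Fatty acid synthesis genes showed no common direction, with 6 of 20 higher and 8 lower in both lines, against 41.7% and 22.6% of all features. Scd1, the stearoyl-CoA desaturase, was at 0.20 on both days in WT and at 1.97 and 1.68 in sh8, a shared change of -0.14 ± 0.14 (SE). Acaca, the acetyl-CoA carboxylase of the cytosol, went from 2.46 to 2.19 and from 2.81 to 2.35, although a dimmer probe gave 1.82 in WT. The elongase Elovl6 was 2.02-fold lower in sh8, from 1.01 to 0.00, and went from 0.43 to 0.25 in WT.

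Cholesterol synthesis genes were lower at day +4, by more in sh8. Of 25 measured genes of 25, 17 were lower in both lines and 1 higher, against 22.6% and 41.7% of all features. The median change was -0.11 in WT and -0.48 in sh8. The sh8 change was below the WT change for 22, as it was for 13566 of all 26020 features. In sh8 6 were at least 2-fold lower, and in WT 0 were, against 1.95% and 0.702% of all features. Fdps, which makes farnesyl diphosphate, went from 2.72 to 2.55 in WT and from 1.81 to 0.43 in sh8. Idi1, the isomerase before it, went from 3.32 to 3.21 and from 2.80 to 1.56. Fdft1, squalene synthase, went from -0.23 to -0.54 and from -1.07 to -1.81 on its brightest probe, a shared change of -0.53 ± 0.17 (SE), but a second probe gave 0.53 and 0.94, higher in both lines. CCAAT was in 80.0% of 20 promoter windows of 17 of these genes. The 200 bases before the start of Hmgcs1, which makes HMG-CoA, are shown with CCAAT in capitals (chr13:119690151-119690350, plus).
Hmgcs1: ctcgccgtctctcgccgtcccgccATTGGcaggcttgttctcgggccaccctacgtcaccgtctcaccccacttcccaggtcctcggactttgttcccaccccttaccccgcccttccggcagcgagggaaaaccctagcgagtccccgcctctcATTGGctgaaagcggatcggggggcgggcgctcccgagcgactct
Hmgcs1 went from 3.87 to 3.73 in WT and from 3.15 to 2.45 in sh8.

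Interferon response genes were lower at day +4, by more in WT. These genes are switched on by type I interferon through a transcription factor complex that contains STAT2 and IRF9. Of 36 measured genes of 38, 21 were lower and 2 higher in both lines, against 22.6% and 41.7% of all features. The median change was -0.76 in WT and -0.08 in sh8. In WT 11 were at least 2-fold lower, against 0.702% of all features, and in sh8 0 were. The median level was 0.94 in WT at day +2, above -0.33 in sh8, and was -0.11 and -0.58 at day +4, so the lines were closer at day +4. Oas2, a sensor enzyme of viral RNA, went from 2.66 to 0.74 in WT (3.79-fold lower) and from 1.63 to 0.81 in sh8 (1.77-fold lower), a shared change of -1.37 ± 0.32 (SE), with an adjusted p of 0.496 by limma. Ifi44 went from 1.14 to -0.80 in WT and from 0.22 to -0.27 in sh8. Ifit1, which binds foreign RNA, went from 2.20 to 0.73 in WT and from 0.30 to 0.55 in sh8, and Isg15, the ubiquitin-like modifier, from 4.25 to 3.34 in WT with 2.85 on both days in sh8. Stat2 itself went from 3.94 to 3.11 and from 3.68 to 3.21, a shared change of -0.64 ± 0.16 (SE), with an adjusted p of 0.496 by limma and of 0.0451 with the trend. Oasl1 went against the group, from -3.15 to -0.95 in WT and from -0.39 to -0.78 in sh8. Of 30 measured inflammatory mediators and chemokines, 13 were higher and 6 lower in both lines, near the 41.7% and 22.6% of all features. Among them, the chemokine Ccl5, which draws in T cells, went from 2.17 to 1.21 and from 1.60 to 0.84. Its shared change was -0.87 ± 0.13 (SE), with an adjusted p of 0.496 by limma and of 0.0148 with the trend.

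**Figure D4:**
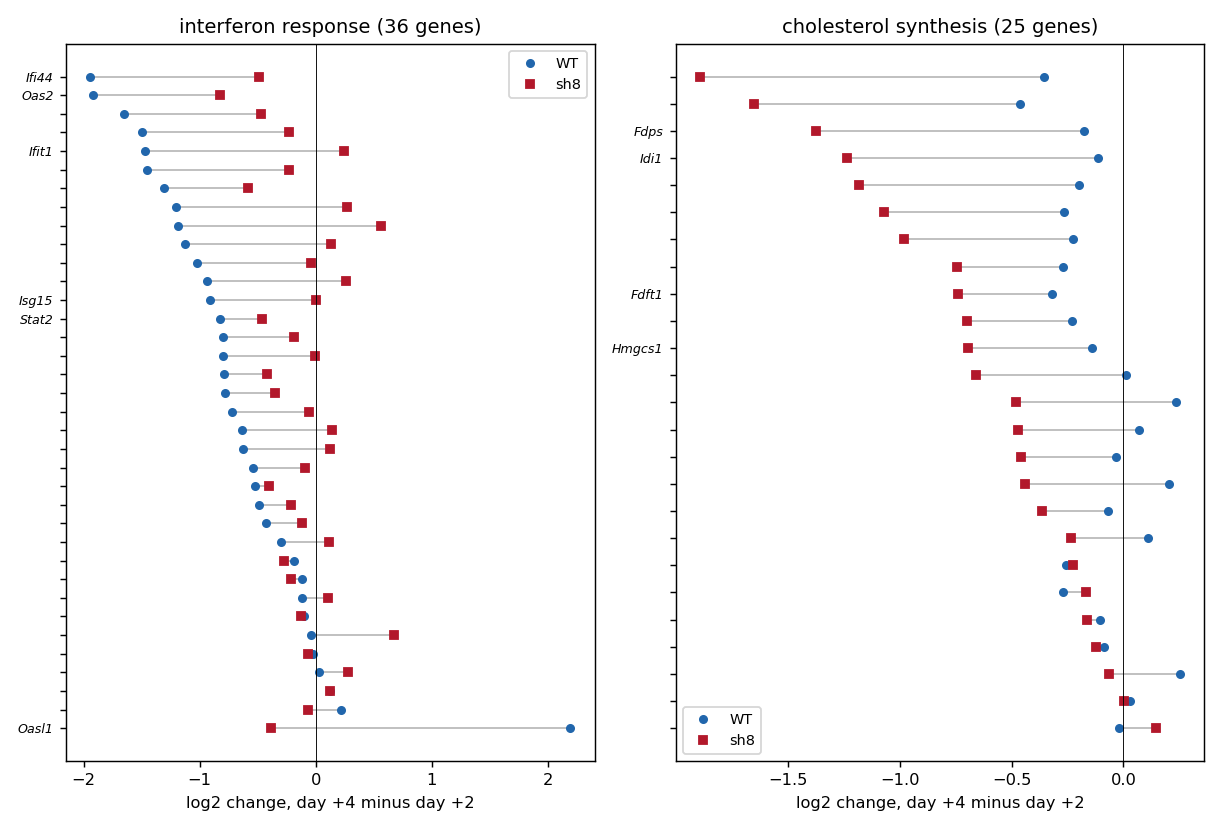
Log2 change from day +2 to day +4 of each measured gene of the interferon response (36 genes) and of cholesterol synthesis (25 genes), with WT as blue circles and sh8 as red squares joined by a grey bar and names shown for the genes described in the text. Interferon genes lie farther below 0 in WT (median -0.76) than in sh8 (-0.08), and cholesterol genes farther below 0 in sh8 (-0.48) than in WT (-0.11).

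The genes of energy metabolism shifted by small amounts. Of 38 respiratory chain genes 26 were higher in both lines, with a median of 0.17 in WT and 0.11 in sh8. Of 22 fatty acid oxidation genes 15 were, against 41.7% of all features. With quantile normalization these counts were 19 and 11, and 32.5% of all features were higher in both lines. Pex11a, which divides peroxisomes and is a PPAR target, reached 2.10 in WT, 0.60 above day +2, and went from 0.77 to 1.38 in sh8, a shared change of 0.60 ± 0.12 (SE), with an adjusted p of 0.496 by limma and of 0.0446 with the trend. Of 35 ribosomal protein genes 29 were higher in both lines, against 41.7% of all features, by a median of 0.15 and 0.26. With quantile normalization 15 were, against 32.5% of all features, and the medians were 0.03 and 0.05. Of glucocorticoid targets 9 of 19 were higher in both lines, and 5 with quantile normalization, against 41.7% and 32.5% of all features. Tsc22d3, the glucocorticoid-induced leucine zipper, went from 5.47 to 5.95 and from 4.75 to 5.65.

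The share of matrix genes higher in both lines was near that of all features. Of 33 fibrillar collagen and matrix genes 16 were higher in both lines and 1 lower, against 41.7% and 22.6% of all features. With quantile normalization 10 were higher in both, against 32.5% of all features, and the WT median turned to -0.02. Lum, the proteoglycan lumican, went from -1.57 to -0.34 in WT and from -3.89 to -2.96 in sh8, a shared change of 1.08 ± 0.15 (SE), with an adjusted p of 0.496 by limma and of 0.0235 with the trend. Mgp, an inhibitor of calcification, went from 2.32 to 3.39 and from 0.97 to 1.89, a shared change of 1.00 ± 0.13 (SE), with an adjusted p of 0.496 by limma and of 0.00627 with the trend. The glutathione transferase Gsta3 went from 0.17 to 1.27 and from 0.24 to 1.36, a shared change of 1.11 ± 0.12 (SE), with an adjusted p of 0.496 by limma and of 0.00627 with the trend. Over the alternatives, the adjusted p by limma of the 15 genes named here that passed with the trend ran from 0.00627 to 1, and 0 of them passed under any other setting run. Each array was also left out in turn, in fits on all remaining arrays of the series. There 15 of the 15 kept their direction, and 6 moved by over 1.5 times: Fabp5, Racgap1, Foxm1, Hells, Stat2 and Gsta3. Because genes that moved alike in the lines pass more easily with the trend, their kept direction is no separate support.

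**Figure D5:**
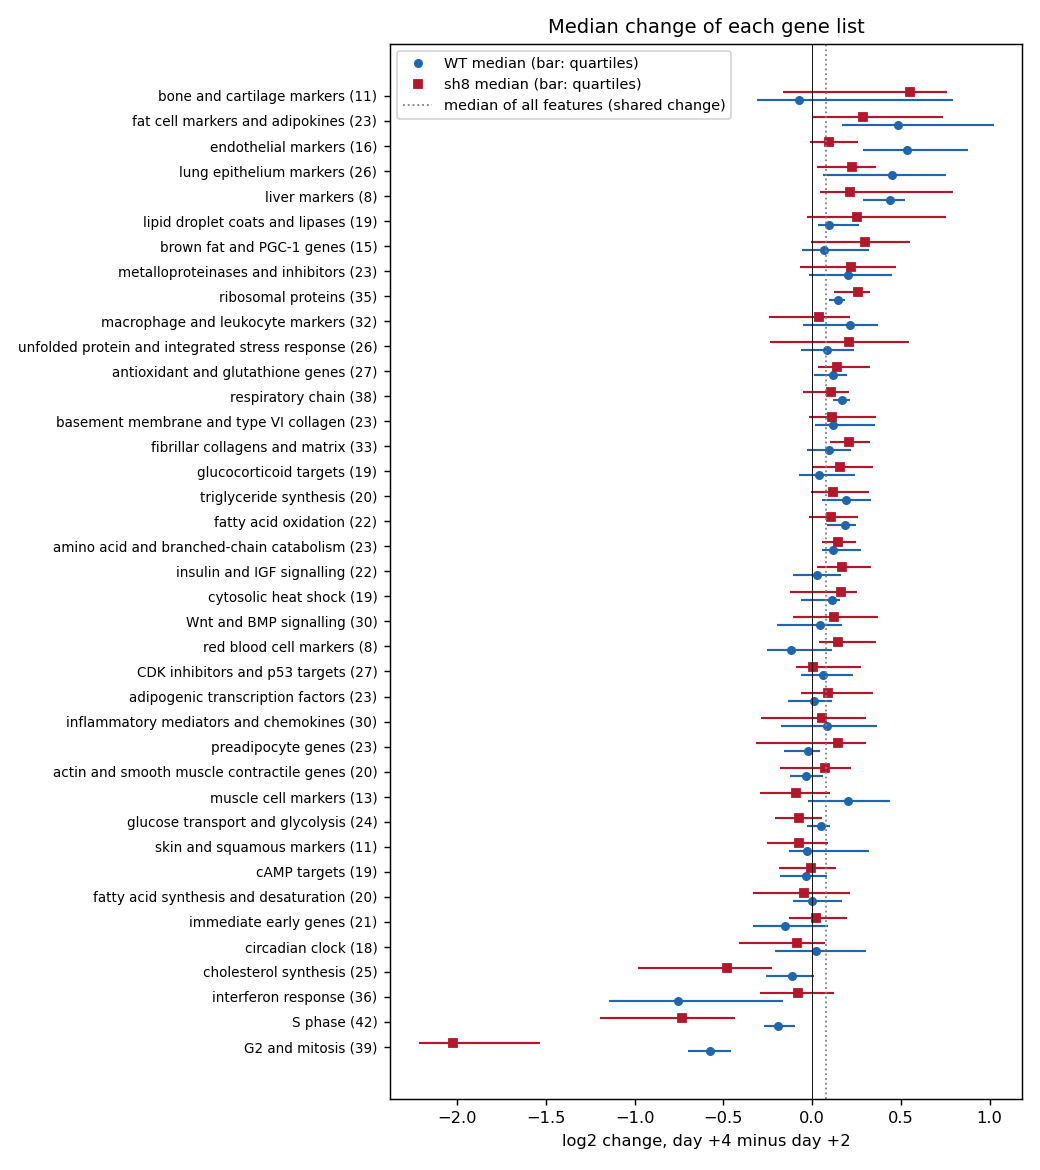
Median log2 change from day +2 to day +4 of each of 39 gene lists in WT (blue circles) and sh8 (red squares), with bars for the quartiles over members and the number of members measured beside each name. G2 and mitosis has the lowest median in sh8 (-2.02, with -0.57 in WT), the interferon response has the lowest in WT (-0.76), and the dotted line is the median of all features (0.08).

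Of all named genes well above background on all 4 arrays, Folh1, a folate hydrolase, had one of the largest differences in both lines, from -4.78 to -2.84 in WT and from -5.65 to -3.08 in sh8. Its shared change was 2.26 ± 0.21 (SE), 4.79-fold, with an adjusted p of 0.496 by limma and of 0.00627 with the trend. After normexp background correction it was 1.04. Agtr2, the type 2 angiotensin receptor, went from -3.92 to -0.81 in WT and from -2.87 to -1.86 in sh8. The collagenase Mmp13 went from -0.06 to 0.80 and from -2.63 to -0.53. The transporter Slc16a12 went from 0.25 to 0.80 in WT and from -2.08 to 0.86 in sh8, where it was 7.64-fold higher. In WT, Arxes1, an adipocyte-related gene of the X chromosome, went from -4.38 to -1.90 while it was at -2.29 and -2.19 in sh8. In sh8, the hormone gene Fgf21 went from -4.63 to -2.68, against -4.01 to -4.35 in WT. These dim genes had smaller differences after normexp, 4.80-fold for Agtr2 and 2.99-fold for Arxes1 in WT and 2.05-fold for Fgf21 in sh8.

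Whether the change differed between the lines was tested over all 8 arrays. A gene's own spread is there how the lines' difference moved from day -2 to day 0, again moderated by limma. Of 26020 features 0 (0%) passed by limma, with a lowest adjusted p of 0.913, and 1411 had an unadjusted p under 0.05. The 5 largest differences with sh8 below WT were those of Cfd (-3.44 ± 0.44 SE), Cstdc4 (-3.36 ± 0.21), Adipoq (-3.09 ± 0.41), Cstdc5 (-3.00 ± 0.97) and Mki67 (-2.72 ± 0.23). Cstdc4 and Cstdc5 are close copies in the stefin family that probes may not tell apart. The 5 largest the other way were those of Spats2l (2.82 ± 0.22), Tmsb15l (2.78 ± 0.22), Serpina6 (2.73 ± 0.50), Olfr1211 (2.46 ± 0.23) and Bdh1 (2.39 ± 0.25), and 0 of these 10 passed. After normexp the change in the line that moved most was over 1.5 times smaller as a fold for each of them but Mki67, as for Spats2l in sh8 at 3.55-fold. Spats2l went from -4.89 to -1.80 in sh8 and from -2.31 to -2.03 in WT. Second probes of Bdh1 and Serpina6 gave smaller changes in sh8, 0.58 and 0.42.

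Markers of other cell types were also measured. Lung epithelium markers were well above background for 26, 25, 26 and 26 of 26 genes in WT at days +2 and +4 and sh8 at days +2 and +4, with summed signals of 24.3, 31.1, 30.6 and 37.7 times the 75th percentile. Of these 26, 17 were higher in both lines, against 41.7% of all features, with a median of 0.45 in WT and 0.22 in sh8. Cyp2f2, a club cell enzyme, went from 1.57 to 2.42 and from 3.43 to 3.91. By limma 0 of the 26 passed, and 1, Cyp2f2, passed with the variance trend (adjusted p 0.0451 by limma). Endothelial markers were higher in both lines for 12 of 16, against 41.7% of all features. Their median was 0.54 in WT and 0.09 in sh8, with summed signals of 10.1, 12.4, 13.7 and 16.5. Of 32 measured macrophage and leukocyte markers 15 were higher and 9 lower in both lines, near the 41.7% and 22.6% of all features, with a median of 0.22 in WT and 0.04 in sh8 and summed signals of 26.3, 31.1, 32.9 and 42.8. The red cell marker Epb42 and the liver markers Alb, Apoa1 and Ttr were not well above background on any of the 4 arrays. The part of these other transcripts in the changes of fat cell, interferon and other genes was not tested.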

How the data were processed

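RNA of 3T3-L1 cells was hybridised to 1-colour Agilent arrays. The deposited scanner files hold intensity per spot from Agilent Feature Extraction 11.0.1.1, per the submitters' processing notes, and the processed signal used here is background-subtracted, per the file headers. Of 44397 spots per array 1377 were controls, and of 39429 distinct probes on the others 46 were left out for outlier flags. Values were log2 of the processed signal minus the array's 75th percentile, and a feature was kept if at least 2 of the 4 arrays had it well above background. Of 39383 probes 27207 had a symbol through a RefSeq accession (GRCm38.p6). A gene was read from its brightest probe.

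The shared change was fitted with limma 3.58.1 (R 4.3.3) on day and line, with 1 residual degree of freedom, and Benjamini-Hochberg adjustment at 0.05. The difference between the lines was fitted on all 8 arrays, so real change between days -2 and 0 counts there as spread. Both fits were tested on simulated data. Alternatives were quantile normalization, normexp on the median signal (no mean signal column was used), other filters and probe rules, a robust fit with a variance trend, all 8 arrays, leaving out each array, and the authors' value table. That deposited table holds log2 values with a median of 6.38 per column, and each of 8 columns matched its own array best (r at least 0.994), but its normalization and centring are unknown.

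The named genes are those with the lowest p in each list, a fixed set of fat cell and cell cycle genes, and the 5 largest line differences each way. Others named were chosen after their values were seen, and some members of the lists are counted but not reported by name here. All members and lists were chosen with earlier results of these data known.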

Additional observations from a re-analysis of the deposited data

Results flagged for a closer look

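Cfd, which encodes the protease adipsin, moved in opposite directions in the lines by more than 2-fold each. Its level went from -4.42 to -2.64 in WT and from -3.79 to -5.44 in sh8, so the sh8 change minus the WT change was -3.44 ± 0.44 (SE) on the log2 scale. After normexp the change was 1.93-fold higher in WT and 1.41-fold lower in sh8. Each line had 1 array per day, and in the limma fit of the line difference the adjusted p was 0.913.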

How the results depend on the processing

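With 1 array per line and day, each main test has 1 residual degree of freedom, moderated by the spread of all features. The shared change gave 0 calls by limma with every scaling, filter and probe rule and with all 8 arrays (lowest adjusted p 0.0711 there), and 161 with the robust variance trend. Leaving out each array gave from 0 to 0 calls. The count of features at least 2-fold different in WT, 907, was 61 after normexp, 274 for features well above background on all 4 arrays and 2579 at 1.5-fold, and in sh8, 1145, it was 262, 728 and 3604. Reversed shared changes were Cebpb at -0.082 with quantile normalization and -0.076 in the authors' value table, Cebpd at -0.026 and -0.037, Cdkn1a at -0.022 and -0.021, -0.0053 after normexp and -0.10 with the median over probes, and Fdft1 at 0.10 with the median over probes. With each array left out in turn, in fits on all remaining arrays of the series, the range was -0.18 to 0.30 for Pparg, -0.11 to 0.30 for Cebpb, -0.084 to 0.34 for Cebpd, -0.0505 to 2.98 for Adipoq, -0.51 to 0.22 for Scd1 and -0.10 to 0.12 for Cdkn1a. Among genes that kept their sign it was -1.50 to -0.15 for Hells, 0.49 to 1.73 for Gsta3 and -3.62 to -1.26 for Mki67. The lowest Adipoq value is the one without WT at day +4. The cause was not tested. The fit of the shared change pairs the days within each line, as the line is a term of it. No further pairing was possible because the groups share only replicate number 1. Dim genes, near the background, have the least certain changes.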
